A study of Mus musculus with 16 samples.

Results

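The genes described here are 10 cytokines, inflammatory mediators and acute phase genes: Tnf, Il1b, Il6, Lif, Il33, Csf1, Ptgs2, Ptx3, Saa3 and Lcn2. They were taken by gene symbol from a table of 54532 genes. All 10 were present, and all 10 passed the low-count filter of every fitted comparison. Total RNA had been sequenced in bulk from preadipocytes (P) and mature adipocytes (A) of gonadal white fat from female C57BL/6 mice, a common inbred strain. The title of the series speaks of single-cell RNA. The tables give each library a single column of values without barcodes for cells, and the libraries were read as bulk on that ground.

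The 16 libraries fell into 6 groups. The stress mice (MS) had been taken from the dam daily on postnatal days 2 to 16 and weaned on day 17. Control mice (C) were left undisturbed and weaned on day 21. High-fat (HF) feeding was represented by 8 preadipocyte libraries, 4 from each rearing condition, and by 6 mature adipocyte libraries, 3 from each. Low-fat (LF) feeding was represented by 1 preadipocyte library per rearing condition and by no adipocytes. No genotype other than the strain is given, and neither the age at sampling nor the duration of the diets could be read from the labels. The tissue of every group was digested with collagenase, and the fractions were parted by centrifugation, filtration and magnetic sorting. Which antibodies were used is not given in the sources used here. Separate animals are not named behind the libraries in the labels, and p-values therefore measure the spread between libraries only, part or all of which may be technical.

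Cytokines such as TNF, interleukin-1 beta and interleukin-6 are short-lived signals of inflammation. They act through receptors that switch on NF-kappaB or the JAK and STAT pathway, and these in turn induce more cytokine genes, the prostaglandin synthase COX-2 and secreted defence proteins of the acute phase. In fat, macrophages are a well-known source of TNF and interleukin-1 beta, while fibroblast-like progenitors are known to make interleukin-6, interleukin-33 and colony-stimulating factor 1. Expansion of fat on a rich diet is known to bring in macrophages.

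Libraries held 14182130 to 23368821 counts. The labelled fractions matched their defining markers: all 9 mature adipocyte markers were higher in adipocytes (median log2 fold change 6.64) and all 9 progenitor markers lower (-4.74). Control preadipocyte libraries 1 and 3 were nearly the same library, with a biological coefficient of variation of 0.0427, against 0.205 to 0.567 in the other 17 pairs within groups. They were summed into 1 library in every main fit and averaged into 1 replicate in every mean, so that n = 3 for high-fat control preadipocytes. In control adipocyte libraries 1 and 3 rare transcripts were sampled less well: genes with 1 to 5 counts over genes with 6 to 15 gave 1.147 and 0.637, against 1.547 to 2.211 in the other adipocyte libraries. Macrophage marker RNA was present in both fractions: 14 markers summed to 1790 to 9510 CPM (counts scaled to library size) in high-fat preadipocyte libraries and to 2880 to 9900 CPM in adipocyte libraries.

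The promoters of the 3 members with the most RNA in preadipocytes, Ptx3, Il6 and Ptgs2, and of Tnf are shown because the first 3 were lower in adipocytes together while Tnf did not pass the test. Each run is the 250 bases before the RefSeq start, 5′ to 3′ on the gene's strand, on GRCm38.p6. The windows are chr5:30012864-30013113 (plus strand) for Il6, chr1:150099781-150100030 (plus) for Ptgs2, chr3:66219637-66219886 (plus) for Ptx3 and chr17:35202008-35202257 (minus) for Tnf. Capitals mark matches to an AP-1 motif (TGANTCA), a cyclic AMP response half-site (ACGTCA), a C/EBP motif (TTGNGCAA) and the NF-kappaB consensus.
Il6: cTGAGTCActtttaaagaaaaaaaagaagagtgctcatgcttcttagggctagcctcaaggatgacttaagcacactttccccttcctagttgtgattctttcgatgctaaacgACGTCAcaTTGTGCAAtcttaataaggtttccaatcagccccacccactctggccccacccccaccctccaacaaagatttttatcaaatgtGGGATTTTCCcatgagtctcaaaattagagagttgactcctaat
Ptgs2: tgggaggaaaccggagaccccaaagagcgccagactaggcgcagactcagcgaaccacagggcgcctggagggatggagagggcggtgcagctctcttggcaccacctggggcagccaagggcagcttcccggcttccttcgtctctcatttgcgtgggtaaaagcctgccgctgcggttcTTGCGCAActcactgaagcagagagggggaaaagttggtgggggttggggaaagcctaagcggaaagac
Ptx3: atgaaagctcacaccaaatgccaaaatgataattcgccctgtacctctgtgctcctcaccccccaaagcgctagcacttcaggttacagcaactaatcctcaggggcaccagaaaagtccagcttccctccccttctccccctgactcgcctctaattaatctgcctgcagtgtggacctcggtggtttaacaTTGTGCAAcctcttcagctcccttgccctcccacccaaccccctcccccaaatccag
Tnf: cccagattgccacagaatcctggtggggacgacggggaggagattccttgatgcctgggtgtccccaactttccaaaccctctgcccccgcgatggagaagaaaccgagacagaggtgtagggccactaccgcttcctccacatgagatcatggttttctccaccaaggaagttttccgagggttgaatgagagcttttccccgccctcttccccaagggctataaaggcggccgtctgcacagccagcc

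Motifs were searched on both strands in the 10 windows and in all 32841 RefSeq promoters of the same length. No 2 matches overlapped. The motif letters were chosen after the sequences had been seen, so the counts of members with a match are a description and not a test. The C/EBP motif was held by 4 of the 10 members (Il6, Ptgs2, Ptx3 and Lcn2) and by 2.61% of all promoters. In Il6 it read TTGTGCAA, 128 to 121 bases before the start. In Ptgs2 it read TTGCGCAA, 69 to 62 bases before, and in Ptx3 TTGTGCAA, 57 to 50 bases before. The NF-kappaB consensus was held by Il6 and Csf1 and by 3.9% of all promoters. In Il6 it read GGGATTTTCC, 44 to 35 bases before the start. The AP-1 motif was held by Il6 and Lif and by 6.75% of promoters, and the half-site by Il6 alone among the members and by 6.47% of promoters. Il6 was thus the 1 member with a match to every motif searched, while the Tnf, Il1b, Il33 and Saa3 windows held none. The RefSeq start used for Lcn2 lies 513 bases from the annotated start of the gene. Members with the C/EBP match did not share a direction between fractions: Lcn2 was higher in adipocytes, and Il6, Ptgs2 and Ptx3 were lower. Lif, Il33 and Csf1 were lower as well, without a C/EBP match. A match is a string of letters in the window, not a measured binding site.

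The comparison of fractions asked which of these genes differed between mature adipocytes and preadipocytes on the high-fat diet. Of the 10 members, 6 were lower in adipocytes (Ptgs2, Lif, Il6, Il33, Ptx3 and Csf1), against 35% of the 16679 genes tested. Lcn2 was the 1 member higher, against 26.4% of all genes. Tnf, Il1b and Saa3 did not pass the test. The median log2 fold change was -2.84 over the members and -0.25 over all genes tested. Ranges are given gene by gene below, and how often those of other genes overlap between fractions was not counted. In bulk samples, fewer cells of a type and less RNA per cell cannot be told apart.

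**Figure D1:**
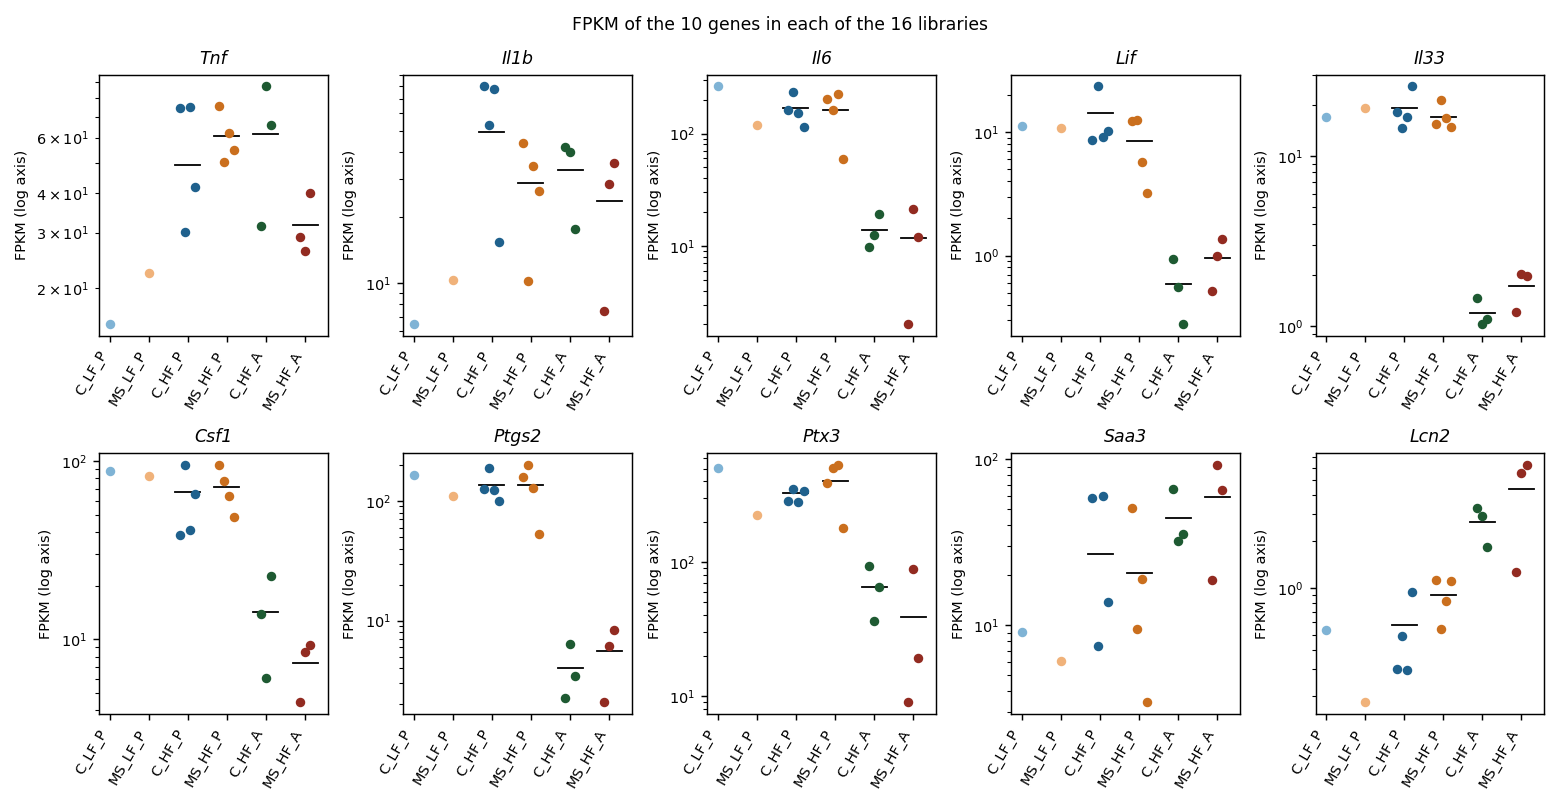
Each panel shows 1 gene, with FPKM on a log axis and the 6 groups along the horizontal axis (C control, MS stress, HF and LF diets, P preadipocyte, A adipocyte). Points are libraries and the black lines are group means, with control preadipocyte libraries 1 and 3 counted once. The adipocyte points of Il6, Lif, Il33, Csf1, Ptgs2 and Ptx3 all lie under the preadipocyte points, and those of Lcn2 lie above them.

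Among the interleukin-6 family, Il6 (ENSMUSG00000025746, chr5:30013114-30019981, plus strand) encodes the cytokine that drives the hepatic acute phase response. Its level in the 8 high-fat preadipocyte libraries ran from 59.7 FPKM (fragments scaled by gene length and library size) through a median of 163 to 235. In the 6 adipocyte libraries it ran from 2.01 through 12.2 to 21.1 FPKM. The fractions did not overlap, and Il6 was 13.1-fold lower in adipocytes (log2 fold change -3.71 ± 0.47 SE, adjusted p = 1.03e-05, edgeR's quasi-likelihood test with Benjamini-Hochberg adjustment). Stress adipocyte library 1 held the lowest value, 2.01 FPKM, and stress preadipocyte library 4 the lowest of its fraction, 59.7 FPKM. Lif (ENSMUSG00000034394, chr11:4257557-4272514, plus strand) encodes leukaemia inhibitory factor, which signals through the same gp130 receptor chain. It was less abundant, at 3.18 to 23.3 FPKM in preadipocytes and 0.279 to 1.35 FPKM in adipocytes, with no overlap. Lif was 13.3-fold lower in adipocytes (-3.74 ± 0.47, adjusted p = 9.95e-06). Its adipocyte counts were small, down to 14 reads in control adipocyte library 3.

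Il33 (ENSMUSG00000024810, chr19:29925114-29960718, plus strand) encodes an alarmin that is stored in the nucleus and released from damaged stromal cells. It was the steadiest member in preadipocytes: over all 10 preadipocyte libraries the highest FPKM was 1.76 times the lowest. High-fat preadipocyte libraries held 14.5 to 25.6 FPKM and adipocyte libraries 1.03 to 2.02 FPKM. Il33 was 12.1-fold lower in adipocytes (-3.60 ± 0.23, adjusted p = 2.94e-08), with the smallest standard error of the 10 members. Csf1 (ENSMUSG00000014599, chr3:107741048-107760469, minus strand) encodes the growth factor on which macrophages depend. Its level was 38.7 to 95.3 FPKM in preadipocytes and 4.43 to 22.6 FPKM in adipocytes. The groups did not overlap, and Csf1 was 6.86-fold lower (-2.78 ± 0.33, adjusted p = 6.65e-06).

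Ptgs2 (ENSMUSG00000032487, chr1:150100031-150108227, plus strand) encodes COX-2, the inducible enzyme that starts prostaglandin synthesis. It had the largest difference of the 10 members. Its level ran from 52.5 through a median of 127 to 201 FPKM in preadipocytes. In adipocytes it ran from 2.07 through 4.81 to 8.38 FPKM. The highest adipocyte value was far under the lowest preadipocyte value, and Ptgs2 was 27.9-fold lower (-4.80 ± 0.43, adjusted p = 4.41e-07). Ptx3 (ENSMUSG00000027832, chr3:66219910-66225805, plus strand) encodes a long pentraxin, a secreted pattern recognition protein made locally rather than in liver. It was the member with the highest FPKM in each of the 10 preadipocyte libraries. High-fat preadipocyte libraries held 180 to 534 FPKM with a median of 346, and adipocyte libraries 8.93 to 93.3 FPKM with a median of 50.3. Ptx3 was 7.40-fold lower in adipocytes (-2.89 ± 0.48, adjusted p = 0.000133). Its span lies within that of Veph1 on the other strand, which had at most 10 counts in a library, against at least 534 for Ptx3.

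Lcn2 (ENSMUSG00000026822, chr2:32384633-32388252, minus strand) encodes lipocalin-2, which binds bacterial siderophores and is also secreted by adipocytes. Its levels were the lowest of the members in preadipocytes, at 0.296 to 1.13 FPKM (19 to 68 reads) on the high-fat diet. Adipocyte libraries held 1.27 to 6.26 FPKM (56 to 356 reads). The ranges did not overlap, and Lcn2 was 4.80-fold higher in adipocytes (2.26 ± 0.39, adjusted p = 0.000181). Neutrophils are another known source of lipocalin-2. Lcn2 itself ran from 0.458 to 17.9 CPM over the 16 libraries, and 9 neutrophil markers summed to 6.97 to 45 CPM. Over 9 preadipocyte samples the neutrophil markers were those with the highest correlation with Lcn2 among the marker lists (Pearson r 0.75, Spearman rho 0.72). Between fractions 5 of the 9 neutrophil markers could be tested, and 1 was lower in adipocytes and 0 higher (median log2 fold change -1.45). The part of neutrophil RNA in the level of Lcn2 was not tested.

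Tnf (ENSMUSG00000024401, chr17:35199381-35202007, minus strand) encodes the founding cytokine of its family. Preadipocyte libraries held 30.2 to 75.7 FPKM and adipocyte libraries 26.2 to 87.2 FPKM. These ranges overlapped almost completely, and the log2 fold change was -0.33 (95% interval -1 to 0.34, adjusted p = 0.384). The Tnf estimate was 0.37 (adjusted p = 0.564) in control libraries only and -0.78 (adjusted p = 0.0214) in stress libraries only, so that its direction turned and Tnf was lower in adipocytes in the latter fit. The test of the difference between these is the interaction given further on (adjusted p = 0.934). Il1b (ENSMUSG00000027398, chr2:129364570-129371139, minus strand) encodes interleukin-1 beta, which is cut to its active form by caspase-1. It held 10.2 to 79.7 FPKM in preadipocytes and 7.41 to 41.9 FPKM in adipocytes, with a log2 fold change of -0.41 (-1.35 to 0.53, adjusted p = 0.441). The antisense gene Il1bos overlaps it and had at most 13 counts. Beside these 2 genes, 12 of 14 macrophage markers did not pass the test between fractions, 1 was higher (Lgals3) and 1 lower (Cd163), with a median log2 fold change of -0.04. The part of macrophage RNA in the levels of Tnf and Il1b was not tested.

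Saa3 (ENSMUSG00000040026, chr7:46711998-46715700, minus strand) encodes serum amyloid A3, the member of its family that is made outside the liver in mice. Control preadipocyte libraries 1 to 4 held 58.5, 7.47, 60.4 and 13.8 FPKM, and stress preadipocyte libraries 1 to 4 held 50.6, 9.57, 18.9 and 3.44 FPKM. Control adipocyte libraries held 66, 32.1 and 35.5 FPKM, and stress adipocyte libraries 18.8, 92.8 and 65.5 FPKM. Control preadipocyte libraries 1 and 3 (the near-identical pair) and stress library 1 were within the range of the adipocyte libraries, while the other 5 were at or below about the lowest adipocyte value. The log2 fold change was 1.14 (-0.13 to 2.41, adjusted p = 0.110), and without stress preadipocyte library 1 it was 1.57 (adjusted p = 0.0434). Its paralogs Saa1, Saa2 and Saa4 had at most 42, 28 and 3 counts in a library, against at least 198 for Saa3. How reads shared between these near-copies were counted is not given in the sources used here.

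**Figure D2:**
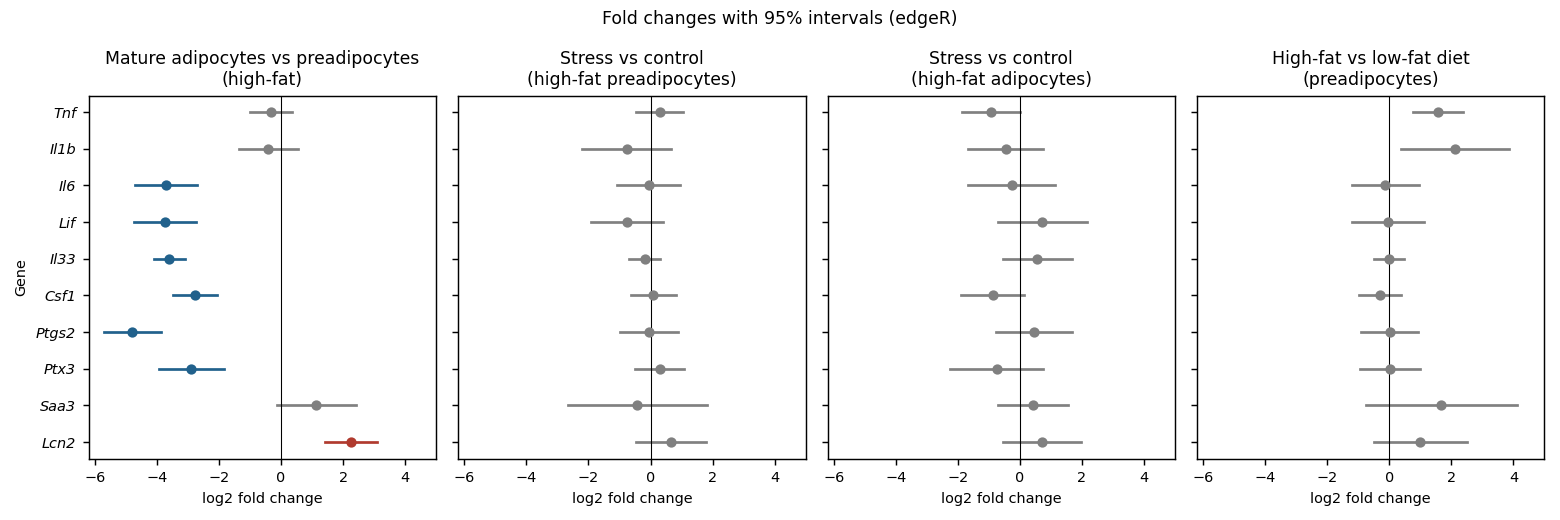
Log2 fold changes with 95% intervals (edgeR) are plotted for the 10 genes in 4 comparisons. Blue marks a gene that was lower and red a gene that was higher at an adjusted p under 0.05, and grey marks genes that did not pass. Only the comparison of fractions has coloured points, 6 blue and 1 red.

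The order of levels also differed between the fractions. In high-fat control preadipocytes Ptx3 led at 326 ± 35.8 FPKM (SD, n = 3), beyond the SDs of the next gene, Il6 (170 ± 60.7), which did not differ beyond its spread from Ptgs2 (137 ± 44.9). Csf1 (66.7), Il1b (49.1), Tnf (49), Saa3 (26.9), Il33 (19.2) and Lif (14.1) followed with spreads that overlapped from each gene to the next. Lcn2 stood apart at 0.578 ± 0.329. In control adipocytes Ptx3 (64.6 ± 28.6 FPKM, n = 3), Tnf (61.5 ± 28.1), Saa3 (44.6 ± 18.7) and Il1b (33.1 ± 13.4) were not told apart by their spreads, and Il33 (1.2 ± 0.232) and Lif (0.592 ± 0.334) were lowest.

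Ptx3, Il6 and Ptgs2 together made 65.7% to 86.4% of the members' summed FPKM in the 10 preadipocyte libraries and 17.2% to 41.2% in the 6 adipocyte libraries. Tnf, Il1b and Saa3 made 2.88% to 25.4% in preadipocytes and 51.3% to 73% in adipocytes. Summed over the 10 genes, preadipocyte libraries held 444 to 1090 FPKM and adipocyte libraries 75.8 to 280 FPKM. In adipocytes the leading member was Ptx3 in control library 1, Tnf in control libraries 2 and 3 and stress library 1, and Saa3 in stress libraries 2 and 3.

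**Figure D3:**
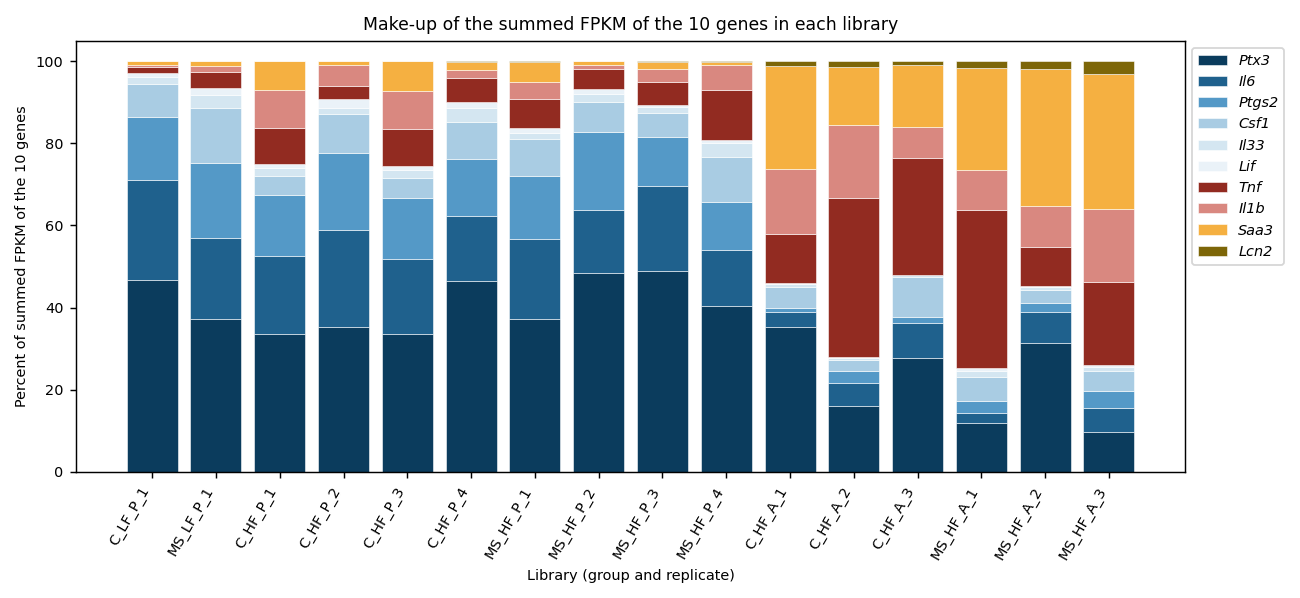
Each bar is 1 library, divided by the percent that each of the 10 genes made of their summed FPKM. Blue shades (Ptx3, Il6, Ptgs2, Csf1, Il33, Lif) fill most of every preadipocyte bar, and red and orange (Tnf, Il1b, Saa3) fill 51.3% to 73% of every adipocyte bar.

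Genes that respond to tissue dissociation moved between the fractions too. Of 13 such genes, among them Fos and Hspa1a, 11 were lower in adipocytes and 1 higher, with a median log2 fold change of -1.10. Their summed level was 10500 to 18100 CPM in high-fat preadipocyte libraries and 4480 to 6830 CPM in adipocyte libraries. Mesothelial markers, of cells that cover gonadal fat, were lower in adipocytes in 11 of 11 genes (median -3.14), at 145 to 1450 CPM in preadipocytes and 39.5 to 179 CPM in adipocytes. Endothelial markers were higher in adipocytes in 9 of 11 genes and lower in 1 (median 2.43), and mural markers higher in 3 of 6 (1.52). B cell markers were lower in 4 of 4 (-2.34), T and NK cell markers in 2 of 4 (-2.16) and epithelial markers in 2 of 6 (-2.58). Il6, Ptgs2 and Lif are themselves known to be quickly inducible. The part of dissociation or of any of these cell types in the lower levels of these members was not tested.

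The other genes of these pathways were counted from lists by role, to be read beside the 35% of all genes that were lower and the 26.4% that were higher. Of 10 receptor genes, 7 were lower in adipocytes and none higher (median log2 fold change -1.04). Il1r1, the signalling receptor for interleukin-1, was 17.4-fold lower (-4.12 ± 0.28, adjusted p = 4.48e-08). Il1rl1, the receptor for interleukin-33, was 14-fold lower (-3.80 ± 0.42, adjusted p = 3.22e-06). The ligand Il33 and its receptor were thus both lower in the adipocyte fraction. The 3 receptor genes that did not pass were Tnfrsf1a (-0.03), the main TNF receptor, Csf1r (-0.31), the CSF1 receptor of macrophages, and Slc22a17 (-0.03), a lipocalin-2 receptor. They were named after their values were seen.

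Among 10 inhibitors and feedback genes, 7 were lower and 1 higher (median -0.99). Tnfaip6, a hyaluronan-binding protein induced by TNF, was 22.3-fold lower (-4.48 ± 0.33, adjusted p = 8.37e-08). Il1r2, the interleukin-1 decoy receptor, was also lower (-1.70 ± 0.51, adjusted p = 0.00961). Sigirr, which dampens signalling of the interleukin-1 receptor family, was the 1 higher (2.16 ± 0.51, adjusted p = 0.00188). Of 12 related ligands 10 were tested, and 5 were lower and 1 higher (median -1.55). Il11, an interleukin-6 family cytokine, was 31.5-fold lower (-4.98 ± 0.51, adjusted p = 1.46e-06), and Csf2, which encodes GM-CSF, was also lower (-4.07 ± 0.93, adjusted p = 0.00159). Ctf1, encoding cardiotrophin-1 of the same family as Il11, was the 1 higher (1.48 ± 0.52, adjusted p = 0.0221).

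Of 21 genes of signalling and processing, 13 were lower and 1 higher (median -0.76). Nfkb1, the p105 and p50 subunit of NF-kappaB, was lower (-2.81 ± 0.30, adjusted p = 2.45e-06), as was the kinase Jak2 (-1.64 ± 0.25, adjusted p = 6.22e-05). Ikbkg, a scaffold of the IkappaB kinase, was higher (0.90 ± 0.17, adjusted p = 0.000433). In the prostaglandin pathway 9 of 16 genes were lower and 2 higher (median -0.92). Ptger1, a receptor for prostaglandin E2, was lower (-3.13 ± 0.85, adjusted p = 0.00534), and so was the prostacyclin synthase Ptgis (-2.69 ± 0.29, adjusted p = 2.42e-06). The higher genes were Ptges2, a prostaglandin E synthase (2.71 ± 0.30, adjusted p = 2.9e-06), and Ptger3, the receptor through which prostaglandin E2 restrains lipolysis (2.13 ± 0.37, adjusted p = 0.0002). Lower genes outnumbered higher ones in these 5 lists.

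The other acute phase genes differed in the opposite direction. Of 13 such genes 8 could be tested, and 4 were higher in adipocytes and 1 lower (median 1.71). Orm1, encoding orosomucoid, was 103-fold higher (6.68 ± 0.63, adjusted p = 6.95e-07), and Hp, encoding haptoglobin, 99-fold higher (6.63 ± 0.47, adjusted p = 6.26e-08). Cp, encoding the copper protein ceruloplasmin, was the 1 lower (-1.87 ± 0.21, adjusted p = 3.32e-06). Of the 2 acute phase proteins among the members that are not pentraxins, Lcn2 was higher and Saa3 did not pass. The pentraxin Ptx3 was lower.

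**Figure D4:**
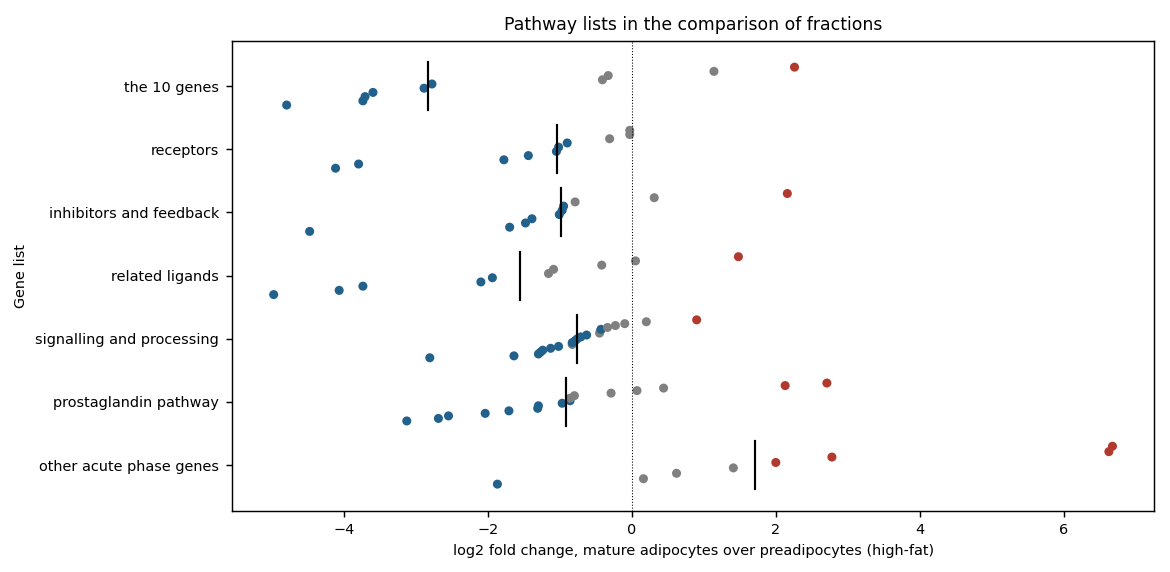
Points are genes, placed by their log2 fold change of mature adipocytes over preadipocytes on the high-fat diet, in rows for the 10 genes and 6 pathway lists. Blue marks lower, red higher and grey not called, and the black bars are list medians. The medians are negative in each row except that of the other acute phase genes (1.71).

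Early life stress was compared with control within each fraction on the high-fat diet. In preadipocytes none of the 10 members passed edgeR's test, and 0% of the 17129 genes tested passed it (496 at an unadjusted p under 0.05). All 10 had overlapping control and stress libraries. How often other genes overlap was not counted, here or in adipocytes. The members' median log2 fold change was -0.05, against 0.02 over all genes.

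Tnf held 74.5, 30.2, 75.2 and 42 FPKM in control preadipocyte libraries 1 to 4, and 75.7, 50.2, 62.2 and 54.8 FPKM in stress libraries 1 to 4. The log2 fold change of stress over control was 0.30 (95% interval -0.46 to 1.05). Il6 held 163, 235, 153 and 115 FPKM in control and 204, 162, 226 and 59.7 FPKM in stress preadipocytes (-0.06, -1.08 to 0.96). Stress library 4 was the lowest of the 8 for both Il6 and Ptgs2, the latter at 126, 187, 124 and 99.7 FPKM in control and 159, 201, 129 and 52.5 FPKM in stress libraries (-0.04, -0.98 to 0.90). Ptx3 held 287, 354, 283 and 337 FPKM in control and 391, 509, 534 and 180 FPKM in stress libraries. Stress libraries 1 to 3 were above every control library and stress library 4 below them all, and the log2 fold change was 0.30 (-0.49 to 1.09).

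Il1b held 79.7, 53.2, 77.6 and 15.4 FPKM in control and 43.8, 10.2, 34.5 and 26.3 FPKM in stress preadipocytes, with a log2 fold change of -0.77 (-2.20 to 0.66). Lif had the same estimate, -0.77 (-1.93 to 0.40), and was highest in control library 2 (23.3 FPKM). The estimates were -0.42 (-2.65 to 1.82) for Saa3, or -1.37 without stress library 1, and 0.67 (-0.46 to 1.79) for Lcn2. For Il33 the estimate was -0.19 (-0.68 to 0.30) and for Csf1 0.09 (-0.62 to 0.81). The intervals of Il1b, Lif, Saa3 and Lcn2 thus each include changes of more than 2-fold, and those of Tnf, Il6 and Ptx3 reach just past it. Those of Ptgs2, Il33 and Csf1 do not. Adjusted p was 0.973 to 0.994 over the 10 members. Markers of other cells also differed between these groups without passing the test: 13 of 14 macrophage markers had positive estimates (median 0.78), and stress libraries 3 and 4 held the highest macrophage marker sums, 8560 and 9510 CPM.

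In mature adipocytes none of the 10 members passed either, against 0% of 14485 genes tested (417 at an unadjusted p under 0.05). All 10 had overlapping groups, and adjusted p was 1 for each. Tnf held 31.5, 87.2 and 65.9 FPKM in control adipocyte libraries 1 to 3 and 29.1, 26.2 and 40 FPKM in stress libraries. Control libraries 2 and 3 were above all stress libraries and control library 1 among them, and the log2 fold change was -0.93 (-1.87 to 0.01, unadjusted p = 0.0515). Csf1 held 13.9, 6.06 and 22.6 FPKM in control and 4.43, 8.46 and 9.31 FPKM in stress libraries (-0.88, -1.90 to 0.13). Without control libraries 1 and 3 the Csf1 estimate was 0.23, in a fit that leaves 1 control library, which is assumed to vary like the stress libraries.

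Ptx3 held 93.3, 36 and 64.6 FPKM in control adipocytes and 8.93, 88 and 19.2 FPKM in stress adipocytes (-0.75, -2.25 to 0.75). Its estimate was -2.09 without stress library 2 and -0.29 without stress library 1. One stress library was thus near the top of the controls and the other two below them all. Lcn2 held 3.28, 2.93 and 1.85 FPKM in control and 1.27, 5.55 and 6.26 FPKM in stress adipocytes (0.71, -0.56 to 1.98). The remaining estimates were 0.71 for Lif, 0.56 for Il33, 0.46 for Ptgs2, 0.43 for Saa3, -0.26 for Il6 and -0.46 for Il1b, each with an interval that includes 0. Beside these, macrophage marker sums were 3260, 9900 and 4670 CPM in the control adipocyte libraries and 7420, 2880 and 4800 CPM in the stress libraries. Control library 2 was highest for both the marker sum and Tnf.

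Whether the stress difference itself differed between fractions was tested with an interaction term over both fractions. None of the 10 members passed, against 0% of 17948 genes (873 at an unadjusted p under 0.05). The Tnf estimate was -1.20 (-2.37 to -0.03, unadjusted p = 0.0457, adjusted p = 0.934). Il33 (0.77, -0.05 to 1.59) and Lif (1.47, -0.21 to 3.14) came next in order of the test. The 2 stress comparisons and the interaction use the same libraries.

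None of the genes in the receptor, inhibitor, ligand, signalling, prostaglandin and acute phase lists passed the test for stress in either fraction or for the interaction. In adipocytes negative estimates were held by 10 of 10 inhibitors and feedback genes (median -0.36), 9 of 10 receptors (-0.37), 15 of 21 signalling genes (-0.17) and 7 of the 8 acute phase genes tested (-1.03). Related ligands were split 4 to 4 (0.02), and 6 of 14 prostaglandin genes were negative and 8 positive (0.12). The median over all genes was -0.01. In preadipocytes the medians of the 6 lists lay between -0.14 (related ligands) and 0.59 (acute phase genes, 6 of 8 positive). Summed acute phase RNA was 4610 to 10300 CPM in control adipocyte libraries and 2060 to 3660 CPM in stress ones. In preadipocytes it was 366 to 484 CPM in control and 514 to 1030 CPM in stress libraries. The sums thus did not overlap in either fraction, in opposite directions. Control adipocyte libraries 1 and 3, in which rare transcripts were sampled less well, held 10300 and 6710 CPM, and control library 2 held 4610 CPM. The mean log2 CPM of the same list overlapped in preadipocytes, at 0.97 to 1.31 in control and 0.98 to 1.95 in stress libraries. In adipocytes these means did not overlap (lowest control 2.9, highest stress 2.83). The groups held 3 or 4 libraries, the near-identical pair among them. How often other sums do not overlap was not counted, and neither the sums nor the means were tested.

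High-fat and low-fat diets were compared in preadipocytes, with 8 high-fat libraries against the 2 low-fat ones and early life treatment as a covariate. No member passed edgeR's test, against 0% of 18468 genes (2360 at an unadjusted p under 0.05). Tnf and Il1b had the smallest unadjusted p-values of the 10 members. The members' median log2 fold change was 0.02, equal to that of all genes.

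Tnf held 15.4 FPKM in the control and 22.3 FPKM in the stress low-fat library, both under the lowest high-fat value of 30.2 FPKM. The log2 fold change of high-fat over low-fat was 1.57 ± 0.36 (0.76 to 2.38), or 2.97-fold, with an unadjusted p of 0.00181 and an adjusted p of 0.320. Il1b held 6.48 and 10.3 FPKM in the low-fat libraries. High-fat libraries ran from 10.2 FPKM in stress library 2 to 79.7 FPKM, so the groups overlapped slightly in FPKM, though not in CPM. The log2 fold change was 2.11 ± 0.77 (0.37 to 3.85), or 4.31-fold, with an unadjusted p of 0.0230 and an adjusted p of 0.343. DESeq2, the alternative count test, called both genes higher on the high-fat diet: Tnf at 1.58 (adjusted p = 0.00239) and Il1b at 2.12 (adjusted p = 0.0406), against 1.29% of the genes it tested. Tnf's estimate was 1.46 to 1.69 when any 1 library was left out. That of Il1b ran from 1.51 without the low-fat control library to 2.94 without the low-fat stress library.

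Macrophage marker RNA is given beside these genes. In the diet comparison 13 of 14 macrophage markers had positive estimates (median log2 fold change 1.45) and none passed. The 14 markers summed to 1590 and 1870 CPM in the low-fat libraries and to 1790 to 9510 CPM in the high-fat ones. High-fat control library 2 (1790 CPM) and stress library 2 (1820 CPM) had sums like those of the low-fat libraries. These 2 libraries held 30.2 and 50.2 FPKM of Tnf, above both low-fat values, and 53.2 and 10.2 FPKM of Il1b, of which the second lay at the low-fat level. Values of 2 libraries cannot show the part of macrophage content in the Tnf and Il1b differences, which was not tested.

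**Figure D5:**
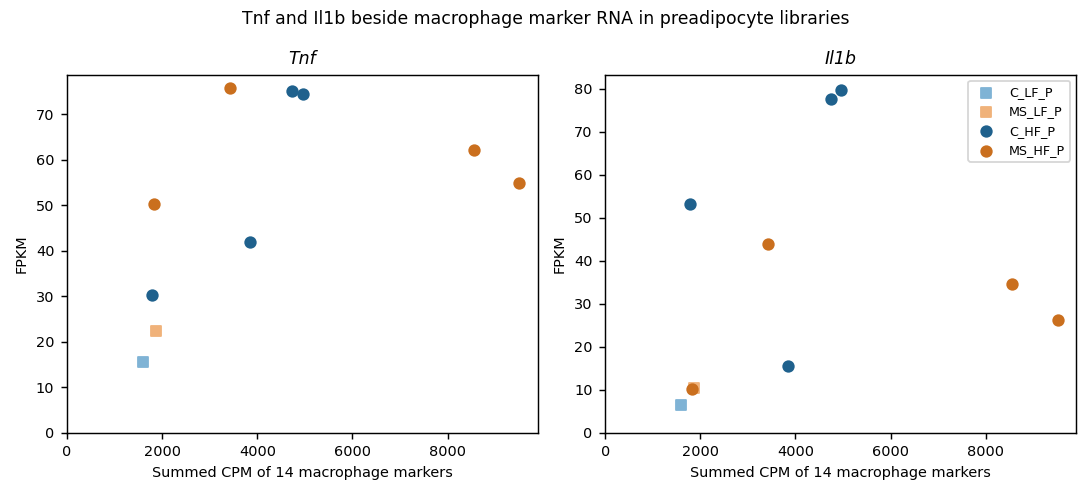
FPKM of Tnf (left) and Il1b (right) is plotted against the summed CPM of 14 macrophage markers in the 10 preadipocyte libraries. Squares are low-fat and circles high-fat libraries, blue control and orange stress. The low-fat squares sit at the lower left, and the 2 high-fat libraries with marker sums of 1790 and 1820 CPM lie above them for Tnf (30.2 and 50.2 FPKM). For Il1b these 2 libraries held 53.2 and 10.2 FPKM, the second at the level of the stress low-fat library (10.3 FPKM).

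The remaining members did not pass in the diet comparison either, and whether they differ from Tnf and Il1b in their response to diet was not tested. Il6 held 263 and 120 FPKM in the low-fat libraries, against 59.7 to 235 FPKM on the high-fat diet (log2 fold change -0.13, -1.21 to 0.95). The estimates for Ptgs2 (0.01, -0.92 to 0.94), Ptx3 (0.03, -0.94 to 1), Lif (-0.05, -1.21 to 1.11) and Csf1 (-0.30, -0.97 to 0.38) were near 0 with intervals reaching about a 2-fold change. Il33 was bounded most tightly, at 0.00 (-0.48 to 0.49). Saa3 held 9.09 and 6.14 FPKM on the low-fat diet, within the high-fat range of 3.44 to 60.4 FPKM (1.68, -0.76 to 4.13). For Lcn2 the estimate was 1 (-0.50 to 2.51), on 34 and 10 reads in the low-fat libraries. It was 2.31 without the low-fat control library and 0.10 without the low-fat stress library. Dissociation response genes had negative estimates in 12 of 13 genes (median -0.35), at 21400 and 19300 CPM in the low-fat and 10500 to 18100 CPM in the high-fat libraries.

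Within the low-fat diet there was 1 library of each treatment, so the difference has no replicate check. Of the 9 members with at least 10 CPM, 2 were past 2-fold, against 2.41% of 9480 genes. Ptx3 was 504 FPKM in the control and 226 FPKM in the stress library, a log2 ratio of CPM of -1.23 (-1.26 to -1.20, counting error only). Il6 was 263 and 120 FPKM, a ratio of -1.20 (-1.24 to -1.16). Ptgs2 was at 164 and 111 FPKM (-0.64) and Saa3 at 9.09 and 6.14 FPKM (-0.63). The ratios of Csf1 (-0.16), Lif (-0.12), Il33 (0.11), Tnf (0.46) and Il1b (0.60) were smaller. Lcn2 (-1.44, on 34 and 10 reads) was under the level set for this comparison.

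Across the 9 preadipocyte samples (the near-identical pair as 1), members differed in how much they varied. Saa3 spanned 17.5-fold from lowest to highest over the 10 libraries, Il1b 12.3-fold and Lif 7.34-fold, against 2.46-fold for Csf1 and 2.98-fold for Ptx3. Log2 CPM of Il6 varied with that of Ptgs2 (Pearson r 0.869, Spearman rho 0.667) and of Ptx3 (0.813 and 0.8). Tnf varied with Il1b (0.714 and 0.683) and not with Il6 (-0.195 and -0.1). These correlations pool both diets and treatments over n = 9, share library and depth, and are given as a description.

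Marker sums varied with some members over the same 9 samples. The mean log2 CPM of the macrophage markers had r = 0.73 (rho 0.68) with Tnf and 0.56 (0.6) with Il1b. It had r = -0.79 (-0.73) with Lif, -0.65 (-0.67) with Ptgs2 and -0.65 (-0.63) with Csf1. Other lists had values of like size. Progenitor markers had r = -0.73 (-0.68) with Tnf, -0.67 (-0.63) with Il1b and 0.69 (0.5) with Csf1. Neutrophil markers had 0.67 (0.58) with Il1b. Mature adipocyte markers had 0.77 (0.78) with Lif and 0.68 (0.58) with Ptgs2. The lists are not independent of each other. Stress libraries 3 and 4 held the highest macrophage sums (8560 and 9510 CPM) and the lowest progenitor sums (7510 and 6210 CPM). Which list these members follow was not tested. For Saa3, which varied most, r lay between -0.26 (progenitor markers) and 0.53 (mature adipocyte markers) over the 11 marker lists.

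The genes most like each member across these 9 samples were found among 14873 genes by Pearson r of log2 CPM. For Tnf they were Rragc (r = 0.956) and Nlrp3, the inflammasome sensor (0.954), and for Il6 they included Tnfaip6 (0.975). For Il1b they included Pde4b, a cyclic AMP phosphodiesterase (0.989). The highest r was 0.984 for Ptgs2 (with Selenow), 0.991 for Lif (Des, encoding desmin), 0.973 for Csf1 (Pcdhgb2) and 0.949 for Ptx3 (Ptk6). It was 0.937 for Il33 (Glrx2), 0.942 for Lcn2 (Ubap2l) and 0.917 for Saa3 (Fam83c). With 9 samples and this many genes, values of this size are found for every member, and the likeness is a description of these libraries.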

How the data were processed

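RNA was measured in 16 bulk libraries in 6 groups, taken from the group codes in the labels. The deposited tables hold whole-number read counts and FPKM for each gene, per the file headers, with gene coordinates on GRCm38. The submitters' processing notes list the aligner STAR 2.6.1d together with DESeq2 1.20.0 and edgeR 3.24.3. Which program counted the reads, on which strand and against which annotation is not given in the sources used here. FPKM equalled count over length and total times 1 factor per library (0.8595 to 1.255), so the deposited FPKM values had been scaled between libraries. Levels are given in FPKM and were not tested in the main results.

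Counts were tested with edgeR 4.0.16 under R 4.3.3, using filterByExpr, TMM factors and a robust quasi-likelihood F test. P-values were adjusted by Benjamini-Hochberg over all genes tested, with a threshold of 0.05. Every adjusted p in the text is from this test unless DESeq2 or limma is named. The ± after a log2 fold change is its standard error, and the ± after an FPKM mean is an SD. Early life treatment was a covariate in the comparisons of fractions and diets. Low-fat libraries were compared as log2 ratios of TMM-scaled CPM with a prior count of 2, among genes with at least 10 CPM in either. CPM was scaled with TMM factors over all 16 libraries. The script was tested on simulated data. Alternatives were DESeq2 1.42.0, limma 3.58.1 on log2(FPKM + 0.1), other scaling and filters, the near-identical pair as 2 libraries, a replicate block and leaving out libraries.

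The members and all lists were chosen with earlier results of these data known, and the motif letters after the sequences had been seen. All 10 members are named in each comparison. From each list, up to 2 called genes per direction with the largest change are named, and for each member the 2 genes most like it could be named. All 10 members matched a RefSeq promoter (GRCm38.p6).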

Additional observations from a re-analysis of the deposited data

How the results depend on the processing

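The 6 lower members and Lcn2 kept their calls between fractions under every alternative run. Saa3 was called higher as well, giving 2 higher members, with limma (1.55, adjusted p = 0.0383) and without stress preadipocyte library 1, so that the count of higher members was 1 to 2 when single libraries were left out. Tnf was 0.37 in control libraries only and -0.78 (adjusted p = 0.0214) in stress libraries only. Over all genes, 5998 were called between fractions in control libraries only, against 10231. Counts of all genes called for stress, 0 with edgeR, were 5 in preadipocytes with DESeq2, 19 in adipocytes with DESeq2 and 51 there with no filter, and 0 to 9 there when single libraries were left out (9 without control library 2). The interaction had 2 with DESeq2. For diet, DESeq2 called 324 genes and 2 members, no filter 1 gene and limma 1 gene, and leaving out single libraries gave 0 to 1 (1 without high-fat control library 4). The causes were not tested.

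Whether libraries with the same replicate number belong together is not said in the labels. The correlations given next cannot decide it, because each group mean rests on few libraries. Deviations of same-numbered libraries correlated at -0.28 to 0.20 between fractions, -0.08 to 0.46 between treatments in preadipocytes and -0.37 to -0.01 in adipocytes. With the replicate number as a block, the near-identical pair was kept as 2 libraries. In that fit 2 genes were called for stress in preadipocytes, and no call of a member changed with a block. No paired analysis was possible for diet because the low-fat groups carry only number 1, and the interaction was fitted without a block.

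The following estimates that passed no test changed sign. Without stress preadipocyte libraries 3 and 4, the stress estimates in preadipocytes were 0.05 (Il6), 0.33 (Ptgs2) and 0.10 (Saa3), and the diet estimate of Lif was 0.25. Without control adipocyte libraries 1 and 3, those in adipocytes were 0.23 (Csf1) and -0.26 (Ptgs2), and the interaction was 0.18 (Csf1), -0.19 (Ptgs2) and -0.10 (Lcn2). The Lcn2 interaction was -0.07 with the pair as 2 libraries and -0.20 with limma. For diet, the pair as 2 libraries gave 0.00 (Il33), -0.02 (Ptgs2) and -0.03 (Ptx3), limma gave -0.03 (Il33) and -0.08 (Ptgs2), and the fit with no treatment covariate -0.02 (Ptgs2). Leaving out single libraries gave, for diet, -0.17 to 0.20 (Il33), -0.63 to 0.44 (Il6), -0.38 to 0.34 (Lif), -0.25 to 0.28 (Ptgs2) and -0.62 to 0.84 (Ptx3). For the interaction it gave -0.11 to 0.77 (Il1b), -0.82 to 0.34 (Il6) and -0.45 to 0.54 (Lcn2). For stress in adipocytes it gave -0.91 to 0.23 (Il6) and -0.01 to 1.01 (Ptgs2), and in preadipocytes -0.08 to 0.42 (Csf1), -0.37 to 0.07 (Il33), -0.29 to 0.22 (Il6) and -0.27 to 0.23 (Ptgs2). In the low-fat pair, FPKM ratios were -1.15 (Ptx3), -1.13 (Il6), -0.56 (Ptgs2) and -0.08 (Csf1). These kept their sign, but each lay outside the interval for counting error of its CPM ratio. Depth limits Lcn2 most, at 10 to 68 reads in preadipocyte libraries.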

Other observations

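Other genes of the same pathways stood beside Tnf and Il1b in the diet comparison, though none passed edgeR's test. They were chosen after their values were seen. Il1rn, the interleukin-1 receptor antagonist, had an estimate of 3.13 ± 0.84 for high-fat over low-fat preadipocytes (unadjusted p = 0.00506, adjusted p = 0.320). Nlrp3, the inflammasome sensor, had 2.00 ± 0.48 (unadjusted p = 0.00265), and Hp, encoding haptoglobin, 2.54 ± 0.47 (unadjusted p = 0.000461). Among the macrophage markers, Trem2, a lipid receptor of macrophages in obese fat, had 4.41 ± 1.04 and Lgals3, encoding galectin-3, 3.14 ± 0.78, both also at an adjusted p of 0.320. In the opposite direction, Socs3, a feedback inhibitor of JAK and STAT signalling, had -0.87 (unadjusted p = 0.00581) and Zfp36, which destabilises cytokine messenger RNA, -0.65 (unadjusted p = 0.0179). Over the 6 lists, positive estimates were held by 9 of 11 related ligands tested (median 0.68), 8 of 9 acute phase genes tested (0.45), 7 of 10 receptors (0.32), 9 of 16 prostaglandin genes (0.24), 15 of 21 genes of signalling and processing (0.18) and 5 of 10 inhibitors and feedback genes (-0.01), against a median of 0.02 over all genes.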
